A study of Mus musculus with 6 samples.

Results

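The 10 genes described here were the effectors of the Hippo pathway and the best known transcriptional targets of YAP: Yap1, Wwtr1, Tead1, Tead2, Tead3, Tead4, Ctgf, Cyr61, Ankrd1 and Lats2. They were taken by symbol from the 28262 genes of the count table, where each symbol occurred once, and all 10 were among the 14919 genes with enough reads to be tested. RNA-seq had been done on Sertoli cells purified from testes of 20-day-old C57BL/6 mice and cultured at 34 °C under 5% CO2 without treatment, with 3 libraries for each of the genotypes. The control cells carried floxed Pa1 alleles (Pa1F/F). In the knockout cells (Amh-pa1-/-) the floxed alleles were deleted by a Cre recombinase under the Amh promoter, which is active in Sertoli cells, so other testicular cells that stay in the culture keep Pa1, and in the isolation procedure of the study unattached germ cells were washed off. Pa1 itself was not analysed here, and the genotypes rest on the labels. The methods of the study call the replicates biological. Neither they nor the labels say whether each came from separate animals, so p-values measure only the spread between these samples, which may in part be technical.

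In the Hippo pathway a cascade of kinases, MST and then LATS, phosphorylates the co-activators YAP (encoded by Yap1) and TAZ (encoded by Wwtr1) and thereby keeps them in the cytoplasm. When the cascade is less active, for example in spread cells with tense actin fibres, YAP and TAZ enter the nucleus and bind the TEAD factors, which bring them to DNA. Sertoli cells are the somatic cells that line the seminiferous tubules and form the blood-testis barrier through junctions anchored to actin. Abundance of an mRNA does not report the phosphorylation or the location of YAP and TAZ.

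Total counts lay between 13203757 and 16231443 per library. Amh-pa1-/- replicate 3 stood apart from the other knockout libraries, with a median absolute log2 difference per gene of 0.236 to each of them and 0.0949 between those. Among the controls, Pa1F/F replicate 2 differed from the others by 0.151 and 0.159, against 0.0995 between replicates 1 and 3. The mean chi-square per gene was 1.66 between Amh-pa1-/- replicates 1 and 2 and 2.22 between Pa1F/F replicates 1 and 3, where counting noise alone gives 1, and 18.3 to 30.5 between the other replicates of a genotype. The close pairs were thus not the same counts deposited again, and all 6 libraries were kept as labelled, but these values do not show whether the libraries of a pair came from separate cell preparations. The 11 Sertoli cell markers summed to 244475.9 to 248591.9 normalized counts in Pa1F/F and 147969.9 to 189746.7 in Amh-pa1-/- libraries, most of it from Clu. Sox9, Wt1, Gata4, Dhh, Cldn11 and Aard had at least 3172 normalized counts in every library, whereas Fshr had 255 to 419, Amh 43.9 to 365 and Rhox5 1.95 to 15.5. Of the 10 Sertoli cell markers tested, 4 fell (Gata4, Clu, Inhbb and Aard), while Sox9, Wt1 and Dhh were among the 6 that did not pass. Markers of other cells also moved with genotype. The summed normalized counts of 7 Leydig cell markers were 11678.8 to 13399.5 in Pa1F/F and 2422.7 to 4230.3 in Amh-pa1-/- libraries, those of 8 macrophage markers 461.5 to 523.8 and 104.2 to 136.3, those of 5 mesothelial markers 98.8 to 171.0 and 441.2 to 567.1, and those of 7 peritubular myoid cell markers 5653.5 to 7661.5 and 23388.3 to 28509.2. Of the 5 mesothelial markers Krt19, Upk3b and Lrrn4 rose, while Msln and Upk1b did not pass, and of the 6 myoid cell markers tested Acta2 and Myl9 rose and Myh11, Cnn1, Des and Actg2 did not pass. Of the Leydig cell markers 3 were tested, and these fell (Star, Cyp11a1 and Hsd3b1), with most of the sum from Star and Cyp11a1. Insl3 and Cyp17a1 were at 0 to 2.90 normalized counts in all libraries, Hsd3b6 at 0 to 4.51 and Lhcgr at 1.95 to 13.6. Those of 6 endothelial markers were 1707.2 to 1793.2 and 939.0 to 1486.9, with Cdh5 and Pecam1 lower and Vwf higher among the 4 tested. Those of 5 fibroblast markers were 30407.7 to 36710.5 in Pa1F/F libraries, 18489.7 and 18290.7 in Amh-pa1-/- replicates 1 and 2 and 34005.1 in replicate 3, and Col3a1 and Pdgfra fell among the 4 tested. Those of 8 germ cell markers were low in every library (44.4 to 57.7 and 20.5 to 86.2), and of the 2 tested Ddx4 fell. Fewer cells of a type and less RNA per cell cannot be told apart in such samples, and the part of these cells in the values below was not tested.

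Most of the 10 genes were higher in the knockout cells. Of them, 7 rose (Wwtr1, Tead1, Tead2, Tead4, Ctgf, Cyr61 and Lats2), where 18.2% of all tested genes rose, and Yap1 fell, where 17.1% fell. Ankrd1 and Tead3 did not pass the test. A gene was said to rise or fall at an adjusted p under 0.05, taken from the quasi-likelihood test of edgeR and adjusted for all tested genes after Benjamini and Hochberg. The median log2 fold change (Amh-pa1-/- over Pa1F/F) was 0.72 over the 10 genes and 0.00197 over all tested genes. All 3 knockout libraries lay above all 3 controls for 8 of the 10 genes (26.3% of all tested genes did) and below them for 1 (26.1%). Cyr61 and Tead4 also passed a log2 fold change of at least 1, which 5.44% of the tested genes passed in this direction. With the counts of the close pairs of replicates summed, which leaves 2 samples per genotype, Cyr61 alone rose and Yap1 no longer passed (adjusted p = 0.124), while the shares over all genes tested in that fit went down to 4.43% and 4.22%. The log2 fold changes in that fit were 1.81 for Tead4, 0.82 for Lats2 and -0.31 for Yap1. For single genes an exact two-sided permutation test of the normalized counts gave p = 0.1 for 9 of the genes, the smallest that 3 against 3 libraries allow, and p = 0.2 for Tead3.

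**Figure D1:**
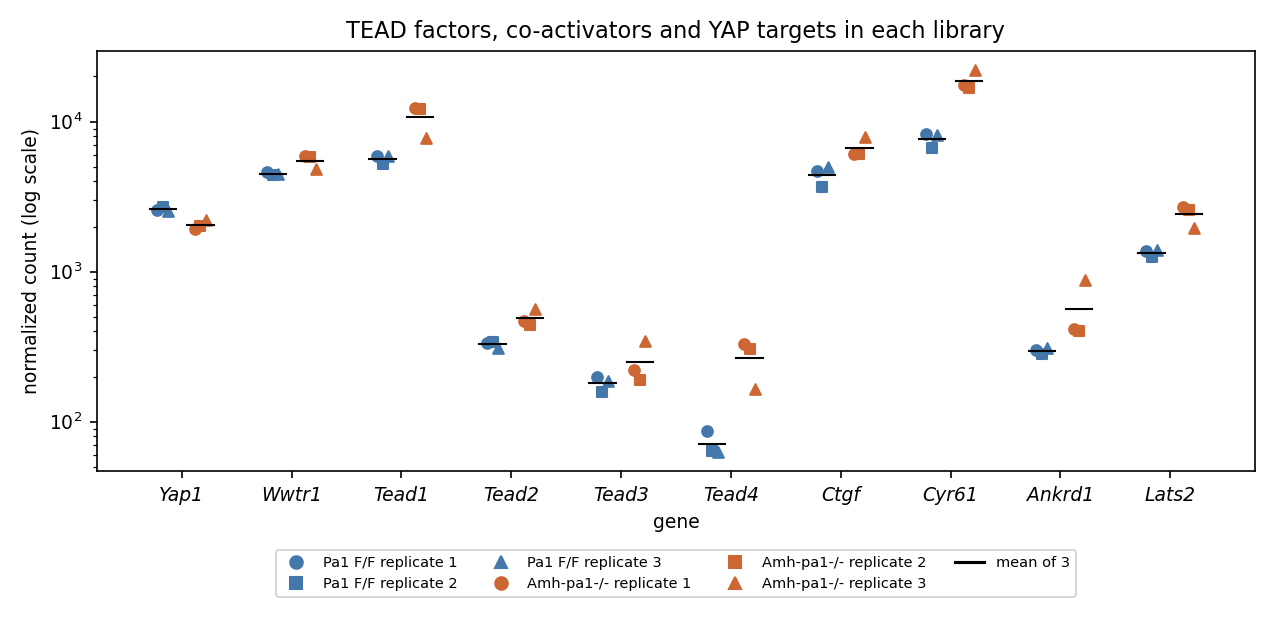
Normalized counts (log axis) of the 10 genes in each library, blue for Pa1F/F and orange for Amh-pa1-/-, with marker shape for the replicate number and black lines for the mean of 3. The Amh-pa1-/- libraries lie above the Pa1F/F libraries for 8 genes and below them for Yap1, and for Tead3 replicate 2 of the knockout lies among the controls and the others above them.

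The co-activators moved in opposite directions. Yap1 (ENSMUSG00000053110, GRCm38 chr9:7931999-8004596, minus strand) had 2570, 2702 and 2531 normalized counts (counts scaled to a common library size) in Pa1F/F replicates 1, 2 and 3 and 1924, 2024 and 2224 in the Amh-pa1-/- replicates. Every knockout library was below every control, and the mean fell from 2601 ± 89.9 to 2058 ± 153 (SD, n = 3 each). On the log2 scale this was a fold change of -0.34 (SE 0.07, 95% interval -0.50 to -0.18, adjusted p = 0.00911, edgeR).

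Wwtr1 (ENSMUSG00000027803, chr3:57455649-57575910, minus strand) had 4649, 4387 and 4458 normalized counts in Pa1F/F and 5908, 5777 and 4836 in Amh-pa1-/- cells. The knockout libraries were all higher, replicate 3 by the least, and the mean went from 4498 ± 135 to 5507 ± 585 (SD, n = 3 each). The log2 fold change was 0.29 (SE 0.09, 95% interval 0.09 to 0.50, adjusted p = 0.0372, edgeR). This call was narrow: leaving out any 1 library other than Amh-pa1-/- replicate 3 gave adjusted p-values between 0.0826 and 0.114. Leaving out that replicate gave 0.000528, in a fit whose knockout side is the close pair of replicates 1 and 2. With the close pairs summed the adjusted p was 0.217 (edgeR).

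Per kilobase of exon the balance of the pair differed. In RPKM (reads per kilobase of exon, scaled to library size with TMM factors), the ratio of Wwtr1 to Yap1 was 1.43, 1.29 and 1.40 in Pa1F/F and 2.43, 2.26 and 1.72 in Amh-pa1-/- libraries. The ratios did not overlap. The summed level of the pair was 45.4, 44.8 and 44.0 RPKM in Pa1F/F and 47.9, 47.9 and 43.9 RPKM in Amh-pa1-/- libraries, which overlapped.

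The TEAD genes encode the DNA-binding partners of YAP and TAZ. Tead1 (ENSMUSG00000055320, chr7:112679318-112906807, plus strand) had 5895, 5204 and 5865 normalized counts in Pa1F/F and 12325, 12060 and 7815 in Amh-pa1-/- libraries. All knockout libraries were higher, with replicate 3 well below the other two. The mean rose from 5655 ± 391 to 10733 ± 2530 (SD, n = 3 each), and the log2 fold change was 0.92 (SE 0.17, 95% interval 0.51 to 1.34, adjusted p = 0.00757, edgeR).

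Tead4 (ENSMUSG00000030353, chr6:128224288-128300823, minus strand), the least abundant of the 10 genes in control cells, had 87.0, 63.9 and 62.9 normalized counts in Pa1F/F and 330, 306 and 164 in Amh-pa1-/- libraries. The groups did not overlap, and the order within the knockout was that of Tead1, with replicate 3 lowest. Its mean rose from 71.3 ± 13.6 to 267 ± 89.6 (SD, n = 3 each), 3.73-fold in the fit, which is a log2 fold change of 1.90 (SE 0.29, 95% interval 1.21 to 2.59, adjusted p = 0.00349, edgeR). Counting error alone would give a coefficient of variation of 11.6% at the control depth of this gene, where 19.1% was measured.

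Tead2 (ENSMUSG00000030796, chr7:45215753-45233644, plus strand) had 335, 340 and 309 normalized counts in Pa1F/F and 472, 438 and 560 in Amh-pa1-/- libraries. Here replicate 3 was the highest knockout library, and again the groups did not overlap. The log2 fold change was 0.58 (SE 0.11, 95% interval 0.31 to 0.84, adjusted p = 0.00817, edgeR).

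Tead3 (ENSMUSG00000002249, chr17:28331671-28350805, minus strand) had 198, 159 and 187 normalized counts in Pa1F/F and 222, 190 and 344 in Amh-pa1-/- libraries. The groups overlapped and replicate 3 held the high value. The log2 fold change was 0.48 (SE 0.23, 95% interval -0.07 to 1.02, adjusted p = 0.151, edgeR), and 0.19 without that replicate (adjusted p = 0.301).

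**Figure D2:**
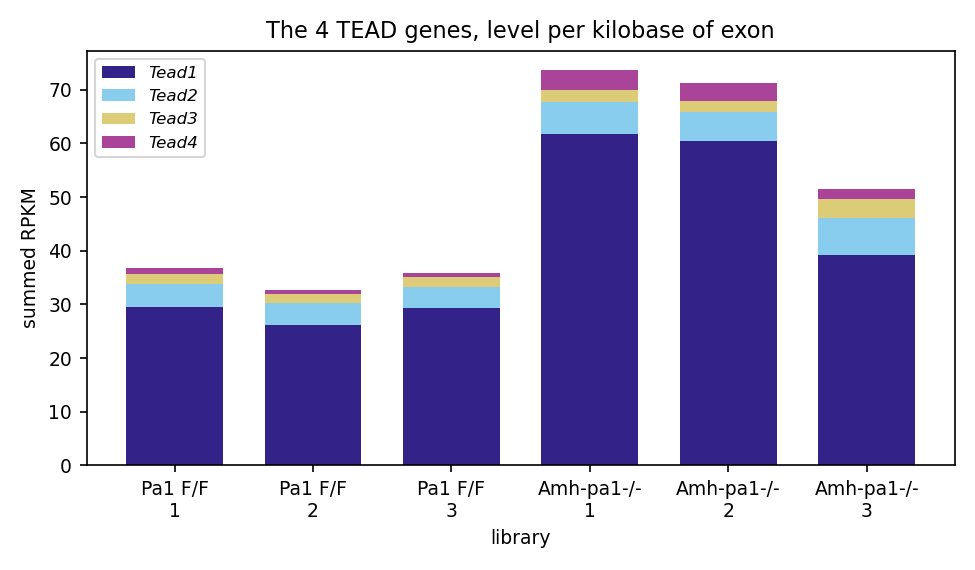
Stacked RPKM of Tead1, Tead2, Tead3 and Tead4 in each library, from 0. The bars reach 32.6 to 36.7 RPKM in the Pa1F/F libraries and 51.5 to 73.6 RPKM in the Amh-pa1-/- libraries, and Tead1 is most of every bar.

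Together the 4 TEAD genes amounted to 36.7, 32.6 and 35.8 RPKM in Pa1F/F and 73.6, 71.2 and 51.5 RPKM in Amh-pa1-/- libraries. Tead1 held 79.9% to 82.0% of the sum in controls and 76.1% to 84.8% in the knockout, so that its share overlapped between genotypes. The share of Tead4 was 1.97% to 2.66% in controls and 3.58% to 5.03% in the knockout, without overlap.

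Among the targets, Cyr61 changed by the most. Cyr61 (also named Ccn1) and Ctgf (Ccn2) encode secreted matricellular proteins of the CCN family and are widely used as readouts of YAP. Cyr61 (ENSMUSG00000028195, chr3:145646976-145649981, minus strand) had 8287, 6702 and 8167 normalized counts in Pa1F/F and 17444, 16783 and 22143 in Amh-pa1-/- libraries. Every knockout library was above every control, replicate 3 by the most, and the mean rose from 7719 ± 882 to 18790 ± 2922 (SD, n = 3 each). This was a log2 fold change of 1.28 (SE 0.14, 95% interval 0.96 to 1.61, adjusted p = 0.000937, edgeR), a 2.43-fold difference, and its share of all counts went from 0.0451% to 0.0563% in controls to 0.113% to 0.155% in the knockout.

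Ctgf (ENSMUSG00000019997, chr10:24595442-24598683, plus strand) had 4678, 3673 and 4966 normalized counts in Pa1F/F and 6124, 6048 and 7876 in Amh-pa1-/- libraries. The groups did not overlap, and the mean rose from 4439 ± 679 to 6683 ± 1034 (SD, n = 3 each). The log2 fold change was 0.59 (SE 0.15, 95% interval 0.24 to 0.94, adjusted p = 0.0212, edgeR), and without Pa1F/F replicate 1 the adjusted p was 0.0591.

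Ankrd1 (ENSMUSG00000024803, chr19:36111965-36119844, minus strand), which encodes an ankyrin repeat protein best known from striated muscle, had 299, 285 and 308 normalized counts in Pa1F/F and 418, 406 and 879 in Amh-pa1-/- libraries. The knockout libraries were all above the controls, but replicate 3 held more than the other knockout libraries together, and the coefficient of variation in the knockout was 47.5%. Its log2 fold change was 0.93 (SE 0.30, 95% interval 0.22 to 1.65) and the adjusted p was 0.0509 (edgeR). Without replicate 3 it was smaller, at 0.47, and passed (adjusted p = 0.00381, edgeR). The knockout side of that fit is the close pair of replicates 1 and 2, which may not be separate preparations. With the close pairs summed the log2 fold change was 1.15 and did not pass (adjusted p = 0.126, edgeR). Ankrd1 also passed without Amh-pa1-/- replicate 1 (0.0460) or replicate 2 (0.0388).

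Lats2 (ENSMUSG00000021959, chr14:57689662-57758388, minus strand) encodes a kinase that phosphorylates YAP and TAZ and is itself a YAP target, which makes it a negative feedback gene. It had 1372, 1259 and 1393 normalized counts in Pa1F/F and 2709, 2570 and 1948 in Amh-pa1-/- libraries. The groups did not overlap, replicate 3 being the lowest knockout library, and the mean rose from 1341 ± 72.2 to 2409 ± 405 (SD, n = 3 each). Lats2 thus had a log2 fold change of 0.84 (SE 0.12, 95% interval 0.55 to 1.14, adjusted p = 0.00309, edgeR).

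**Figure D3:**
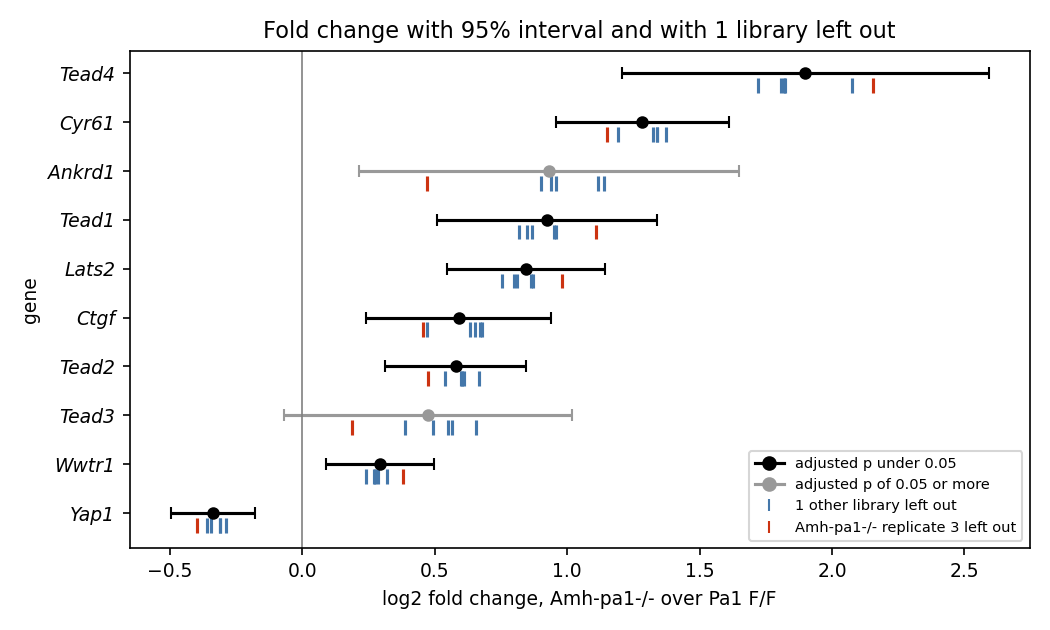
Log2 fold change (Amh-pa1-/- over Pa1F/F) of the 10 genes with 95% intervals, black where the adjusted p is under 0.05 and grey otherwise, and below each the value with 1 library left out (red for Amh-pa1-/- replicate 3). Tead4 is the farthest right at 1.90 and Yap1 is the only gene left of 0, and without replicate 3 Ankrd1 moves from 0.93 to 0.47.

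Sequence upstream of the genes was read to show where elements that TEAD factors bind lie. The RefSeq promoter table (build GRCm38.p6) held 7 of the 10 genes, without Tead1, Tead4 and Ctgf. The TEAD element CATTCC was searched on both strands in the 250 bases before each start, together with the AP-1 element TGANTCA and the CArG box of serum response factor. The targets with matches are given in full here, 5′ to 3′ on the strand of the gene, with the TEAD element or its reverse complement in capitals, for Cyr61 at chr3:145649986-145650235 (minus strand) and Ankrd1 at chr19:36119845-36120094 (minus strand).
Cyr61: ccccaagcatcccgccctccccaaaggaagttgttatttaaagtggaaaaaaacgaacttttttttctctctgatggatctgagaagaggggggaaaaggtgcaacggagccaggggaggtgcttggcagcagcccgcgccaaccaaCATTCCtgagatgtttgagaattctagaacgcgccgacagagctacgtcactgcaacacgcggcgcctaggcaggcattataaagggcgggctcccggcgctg
Ankrd1: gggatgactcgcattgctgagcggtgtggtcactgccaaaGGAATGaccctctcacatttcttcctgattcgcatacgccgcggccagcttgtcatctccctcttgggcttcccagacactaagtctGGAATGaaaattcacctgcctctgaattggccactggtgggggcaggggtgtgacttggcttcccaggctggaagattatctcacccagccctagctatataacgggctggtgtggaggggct

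Cyr61 held 1 element, whose first base lay at -103 from the start, and Ankrd1 held 2, at -210 and -123. Yap1 at -141, Wwtr1 at -136 and Tead3 at -182 held 1 each before their most upstream start, so that 5 of the 7 genes had a match, against 12.6% of the 32817 promoters of the table. Their surroundings are shown for comparison, for Yap1 at chr9:8004717-8004752, Wwtr1 at chr3:57576026-57576061 and Tead3 at chr17:28350967-28351002, all on the minus strand.
Yap1: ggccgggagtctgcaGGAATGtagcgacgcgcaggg
Wwtr1: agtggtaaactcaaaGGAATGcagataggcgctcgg
Tead3: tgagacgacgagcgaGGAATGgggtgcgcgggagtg

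Tead3 has further starts, of which 1 had 2 matches and 1 had none. No match was found for Tead2 or Lats2. None of the member windows held an AP-1 element (6.75% of all promoters did) or a CArG box (1.47%). A match is a run of letters and not a measured binding site. Yap1, which fell, and Tead3, which did not pass, carried the element as did Cyr61 and Wwtr1, which rose, while Tead2 and Lats2 rose without one in this window.

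Levels per kilobase placed the genes in a wide order. In Pa1F/F cells Cyr61 was highest at 258 RPKM, above 99.7% of the tested genes, and was followed by Ctgf (94.7), Tead1 (28.3), Wwtr1 (25.9), Yap1 (18.9), Lats2 (8.70), Ankrd1 (6.78), Tead2 (4.09), Tead3 (1.84) and Tead4 (0.799). Of these neighbours, the libraries of Tead1 and Wwtr1 overlapped and the others did not. In Amh-pa1-/- cells Tead1 stood at 53.8 RPKM and no longer overlapped with Wwtr1 at 31.7. Lats2 at 15.6, Yap1 at 14.9 and Ankrd1 at 12.9 RPKM overlapped there, as did Tead4 at 2.99 and Tead3 at 2.55.

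The knockout libraries did not move alike across the genes. Relative to the mean of the other knockout libraries, Amh-pa1-/- replicate 3 was at 0.516 for Tead4, 0.641 for Tead1, 0.738 for Lats2 and 0.828 for Wwtr1. It was at 1.29 for both Ctgf and Cyr61, 1.23 for Tead2, 1.67 for Tead3 and 2.14 for Ankrd1. Without it, the log2 fold changes were 2.16 for Tead4, 1.11 for Tead1, 0.98 for Lats2 and 1.15 for Cyr61.

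**Figure D4:**
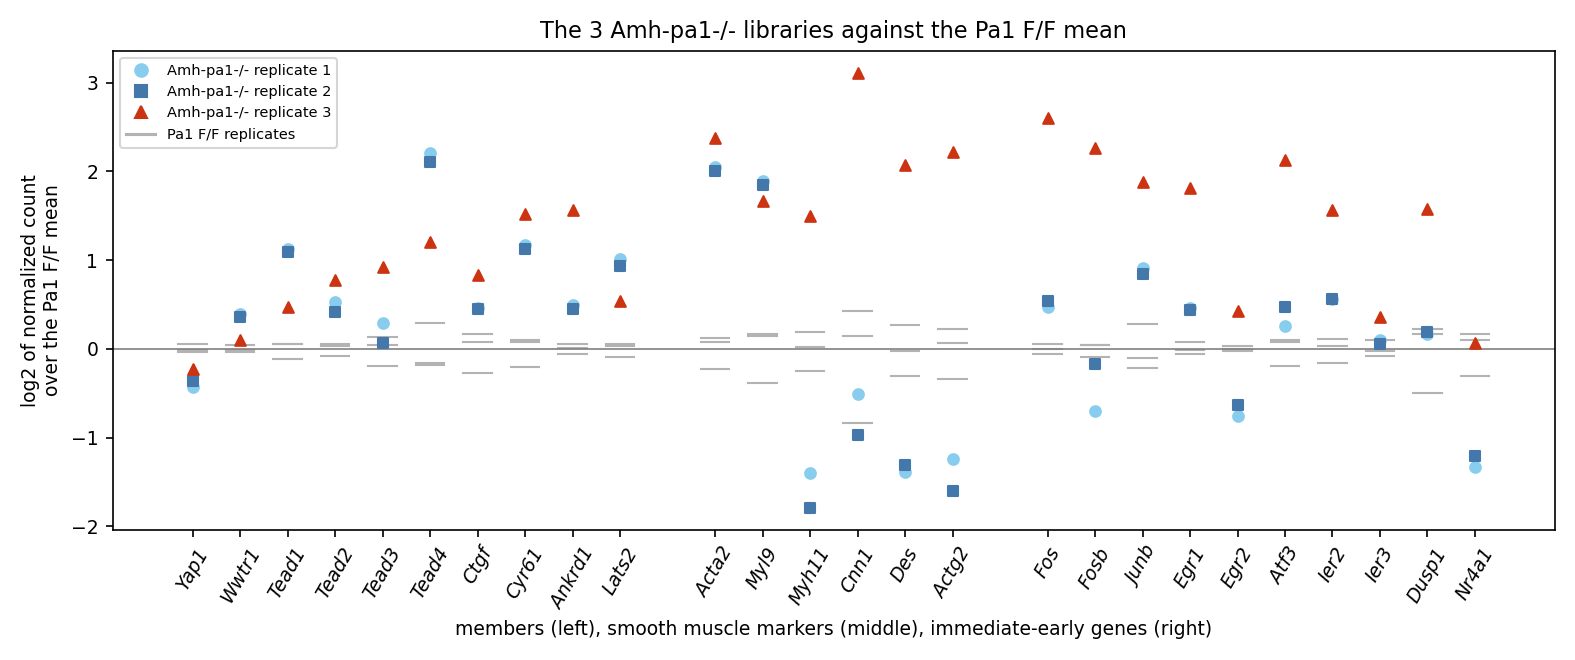
Log2 of the normalized count of each Amh-pa1-/- library (points) and Pa1F/F library (grey lines) over the Pa1F/F mean, for the 10 genes at the left, 6 myoid markers in the middle and 10 immediate-early genes at the right. Replicate 3 (red) lies above the other knockout libraries for Ankrd1, Myh11, Cnn1, Des, Actg2 and all 10 immediate-early genes, and below them for Tead1, Tead4 and Lats2.

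The same library stood apart in immediate-early genes and in markers of contractile cells. Fos, an immediate-early transcription factor, had 673, 700 and 646 normalized counts in Pa1F/F and 932, 978 and 4099 in Amh-pa1-/- libraries. The 10 immediate-early genes summed to 9670.0 to 10196.0 normalized counts in controls, 11939.9 and 11987.6 in knockout replicates 1 and 2, and 29107.4 in replicate 3, and 2 of the 10 rose (Junb and Ier2), near the 18.2% of all tested genes. Myh11, a smooth muscle myosin, had 649, 481 and 580 in Pa1F/F and 216, 164 and 1605 in Amh-pa1-/- libraries. Acta2 and Myl9, which encode a smooth muscle actin and a myosin light chain, rose in all knockout libraries, whereas Myh11, Des and Actg2 were below all controls in knockout replicates 1 and 2, and Tagln was at 14.0 normalized counts or fewer in every library. Whether these cells or signals take part in the values of Ankrd1, Ctgf, Cyr61 and Tead3 was not tested. Without replicate 3 the log2 fold changes were 1.15 for Cyr61 (adjusted p = 0.000141, edgeR) and 0.46 for Ctgf (0.0182). Those for Ankrd1 and Tead3 were 0.47 (0.00381) and 0.19 (0.301). The knockout side of this fit is the close pair of replicates 1 and 2, so its p-values may in part measure technical spread.

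Other targets of YAP and TAZ did not share a direction. Of 18 further genes of a general YAP/TAZ target signature, all tested, 1 rose and 4 fell (18.2% and 17.1% of all tested genes did), and their median log2 fold change was 0.06. Crim1, which encodes a transmembrane protein that binds bone morphogenetic proteins, had 7651, 5654 and 7942 normalized counts in Pa1F/F and 17281, 16844 and 13222 in Amh-pa1-/- libraries. Its groups did not overlap (log2 fold change 1.16, SE 0.16, adjusted p = 0.00246). Nt5e, which encodes the ecto-nucleotidase CD73, went the other way, with 5990, 5136 and 5687 in Pa1F/F and 2628, 2591 and 2137 in Amh-pa1-/- libraries (log2 fold change -1.19, SE 0.10). Nuak2, a kinase of the AMPK family, and Gadd45a, a stress-response gene, also fell, by 0.76 and 0.58 on the log2 scale, as did Myof by 0.20. Axl, a receptor tyrosine kinase and the most abundant of the 18 per kilobase, had 18939, 20422 and 20087 normalized counts in Pa1F/F and 26046, 25560 and 19054 in Amh-pa1-/- libraries, which overlapped (log2 fold change 0.25, adjusted p = 0.182). Without Amh-pa1-/- replicate 3, 5 of the 18 rose and 7 fell, while the shares over all genes tested in that fit went up as well, to 21.9% and 21.2%.

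Among the components upstream of YAP, more genes rose than fell, most of them regulators and not kinases of the cascade. Of 32 genes of the kinase cascade and its regulators, all tested and Lats2 not among them, 12 rose and 2 fell, where 18.2% and 17.1% of all tested genes did. Their median log2 fold change was 0.19 against 0.00197 over all tested genes, and 17 had all knockout libraries above the controls and 5 below (26.3% and 26.1% of all tested genes). With the close pairs summed 5 of the 32 rose and 1 fell (4.43% and 4.22% of all tested genes in that fit), while 16 rose and 5 fell without Amh-pa1-/- replicate 3 (21.9% and 21.2%). In the cascade of 13 genes, 3 rose (Taok3, Stk4 and Mob1a) and Taok2 fell, and 3 of 13 is near the 18.2% of all tested genes. Taok3, a kinase that acts on MST, had 1047, 1055 and 959 normalized counts in Pa1F/F and 2002, 1947 and 1978 in Amh-pa1-/- libraries, a log2 fold change of 0.95. Stk4, which encodes MST1, had 1127, 1149 and 1173 in Pa1F/F and 2077, 1903 and 1791 in Amh-pa1-/- libraries, a log2 fold change of 0.74. Neither gene overlapped between genotypes, and in both replicate 3 lay close to the other knockout libraries. Lats1, the paralog of Lats2, had a log2 fold change of -0.02 (adjusted p = 0.887), and Map4k4, the most abundant of the cascade per kilobase, one of 0.17 (adjusted p = 0.0969).

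Of 19 upstream regulators 9 rose and 1 fell, where 18.2% and 17.1% of all tested genes did. Wwc1, which encodes the scaffold KIBRA, had 284, 216 and 307 normalized counts in Pa1F/F and 720, 662 and 467 in Amh-pa1-/- libraries, a log2 fold change of 1.20. Ajuba, a LIM protein that inhibits LATS and the most abundant regulator per kilobase, had 3390, 3105 and 3204 in Pa1F/F and 5833, 5446 and 4796 in Amh-pa1-/- libraries, a log2 fold change of 0.73. Both genes were higher in every knockout library. Frmd6 (a FERM protein) and Amot (an angiomotin that binds YAP) rose by log2 fold changes of 0.63 and 0.58. Amotl1, a paralog of Amot, fell by 0.84 on the log2 scale. The genes that rose include activators of the cascade such as Wwc1 and Stk4 and an inhibitor of LATS, Ajuba.

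Vestigial-like proteins bind TEAD factors in place of YAP. Vgll3 had 1246, 915 and 1273 normalized counts in Pa1F/F and 4527, 4390 and 2941 in Amh-pa1-/- libraries. It rose by a log2 fold change of 1.79 (SE 0.20, adjusted p = 0.00108), with replicate 3 the lowest knockout library, as for Tead1 and Tead4. Vgll4, which represses TEAD targets, rose by 0.32, and Vgll1 and Vgll2 had at most 1 count in a library. Of the other CCN genes 3 were tested and did not pass, with log2 fold changes of -0.32 for Wisp1, the most abundant of them (adjusted p = 0.262), -1.01 for Wisp2 (0.107) and 1.27 for Nov (0.152). Ankrd23, a relative of Ankrd1, did not pass either.

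**Figure D5:**
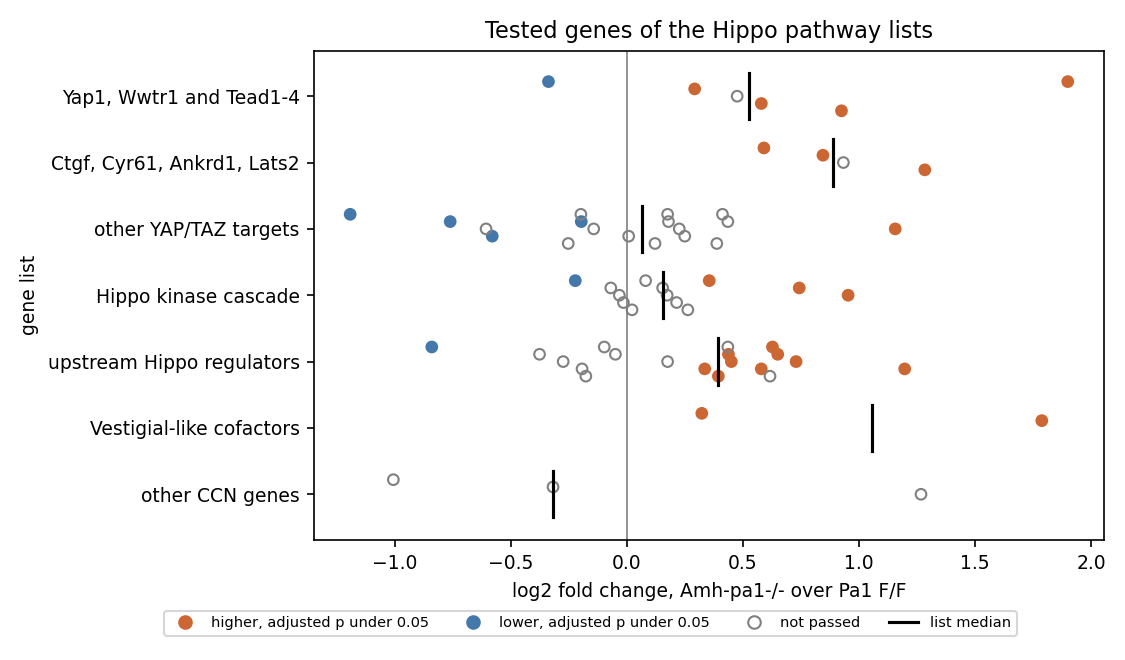
Log2 fold change (Amh-pa1-/- over Pa1F/F) of each tested gene of 7 lists, orange for genes that rose, blue for genes that fell, open for genes that did not pass, with a black line at each list's median. The medians are 0.89 for Ctgf, Cyr61, Ankrd1 and Lats2, 0.06 for the 18 other YAP/TAZ targets and 0.39 for the 19 upstream regulators, and these last 2 lists share Amotl2 and Ptpn14.

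Overlapping genes on the other strand could raise or lower some of these counts, since the strand setting of the counting was not given in the sources used here. The counts of such genes do not bound that effect, because reads left unassigned would be in neither gene. The overlapping genes that were listed had at most 67 counts in a library, which was Gm20430 within Lats2, and for Tead2 the neighbour Cd37 had 1 to 21 counts. Cyr61, Ankrd1 and Tead3 had no overlapping gene in the table.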

How the data were processed

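RNA-seq of 6 mouse Sertoli cell libraries was analysed, with groups and replicate numbers taken from the labels. The authors aligned reads to GRCm38 with HISAT2 2.1.0 and counted them per gene with HTSeq 0.6.0, per the submitters' processing notes, and deposited raw counts. The strand setting is not given in the sources used here. The mean, fold change and p-value columns of the authors' own comparison were not used.

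Genes were filtered with filterByExpr (minimum count 10, minimum total 15), scaled by TMM and tested with edgeR 4.0.16 (quasi-likelihood F-test, R 4.3.3) without covariates. edgeR took the place of DEGseq, named in the methods, which does not use the spread between replicates. The Benjamini-Hochberg adjustment covered all 14919 tested genes. Intervals are at 95%. RPKM used exon lengths of GENCODE matched by Ensembl ID for 14787 tested genes. A length joined the exons of all transcripts of a gene, in a release other than the annotation used for counting. Levels compared between genes depend on these lengths. No coordinates were taken from that release. A count of 3 was the floor (0.185 to 0.230 CPM). Reads carry no molecular identifiers, so floors and counting errors cover counting error only. The code was tested on simulated data. Figures were made with Python 3.11.15.

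The members and lists were chosen with earlier results of these data known. Named are all 10 members, list genes that passed and moved by at least 0.5 on the log2 scale, and the most abundant gene of each pathway list. A gene of these lists that met the rule is not reported here by name. Marker genes are mostly given as sums, and Lats1, Fos, Myh11, Vgll4, Ankrd23 and the genes named in counts were named after their values were seen. Alternatives were DESeq2 1.42.0 size factors and Wald test, library size only, limma-voom (limma 3.58.1), glmTreat, other filters, a replicate block, leaving out libraries, and summing close pairs.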

Additional observations from a re-analysis of the deposited data

How the results depend on the processing

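Of 160 comparisons of a single member's fold change with an alternative, none reversed its direction. Of these, 132 kept their side of the threshold, 22 no longer passed and 6 newly passed, all 6 of them for Ankrd1. When 1 library was left out, 5 to 8 members rose and 1 fell, 1 to 5 of the other targets rose and 3 to 7 fell, and 9 to 16 Hippo pathway genes rose and 1 to 5 fell, where 11.5% to 21.9% of all tested genes rose and 11.1% to 21.2% fell. With the close pairs summed, 1 member rose and 0 fell, 1 of the other targets rose and 2 fell, and 5 Hippo pathway genes rose and 1 fell, with 2 samples per genotype (4.43% and 4.22% of all genes). In edgeR's glmTreat, which asks for a log2 fold change beyond 1 and not beyond 0, 0 genes of any of these lists passed in either direction (at an unadjusted p under 0.05, 2 members did upwards and 1 of the other targets downwards), and 1.56% of all genes did so upwards and 2.05% downwards (Tead4 adjusted p = 0.0659, Cyr61 0.182). In the main test 7 members rose and 1 fell. Other targets that rose numbered 2 with library size only (18.3% of all genes rose), in DESeq2's Wald test (17.8%) and without the filter (9.91%). Without the filter 3 other targets fell, 8 members rose and 1 fell, and 14 Hippo pathway genes rose and 1 fell (8.53% of all genes fell). That fit tested 28262 genes, of which 2802 rose and 2412 fell, against 2718 and 2548 of 14919 in the main test. Its shares over all genes are therefore not comparable with those of the other fits. With the replicate block 6 members rose, Wwtr1 no longer passed (log2 fold change 0.29, adjusted p = 0.0690), and 9 Hippo pathway genes rose and 1 fell (12.8% and 12.6% of all genes). Deviations of same-numbered libraries correlated at 0.0951, -0.144 and -0.161. The highest correlation, 0.201, was between Pa1F/F replicate 2 and Amh-pa1-/- replicate 3, the libraries that stand apart. With so few libraries, and such a library in each genotype, these values cannot show whether same-numbered samples were handled together. Leaving out Pa1F/F replicate 2 and Amh-pa1-/- replicate 3 together, an alternative chosen after seeing the data, gave 8 members that rose and 1 that fell, 5 other targets that rose and 10 that fell, and 17 Hippo pathway genes that rose and 5 that fell (28.0% and 27.3% of all genes). The cause of these shifts was not tested.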
